A study of Homo sapiens with 20 samples.

Results

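End peaks are the peaks of the N4-acetylcytidine (ac4C) RNA immunoprecipitation whose summit lay in the last stretch of a protein-coding transcript, beyond 0.8 of its length. They were chosen by position alone, with no use of peak height, and numbered 61619 of 495936 peaks over 4 deposited lists. The ac4C antibody lists held 18724 end peaks among 162944 peaks in NAT10 knockout cells and 11262 among 92194 in wild type cells. The IgG lists held 19286 among 147469 in knockout cells and 12347 among 93329 in wild type cells.

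All samples were K562 cells, a leukaemia line of erythroid character, grown in the same medium and either carrying a CRISPR-Cas9 deletion aimed at exon 5 of NAT10 or left as the parental wild type. For the immunoprecipitation, RNA depleted of ribosomal RNA was broken into pieces of about 100 nt and captured on beads with an ac4C antibody or with normal rabbit IgG. The labels give polyA RNA for both precipitates and total RNA for the input. The 12 immunoprecipitation samples are 2 each of input, IgG and ac4C antibody per genotype, and 4 RNA-seq and 4 Ribo-seq samples, 2 per genotype each, measured RNA and ribosome footprints in the same lines. The labels do not say how many clones or separate cultures the samples came from, so any p-value here reflects variation between these particular samples, which may be technical. Peaks were called on the merged replicates of a group. Each list is therefore 1 value without a replicate check, no test between lists was possible, and all intervals on shares cover counting error only. Knockout and wild type were called as separate lists of unequal size, so genotype and list cannot be told apart.

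ac4C is an acetyl mark on cytidine that NAT10 deposits on ribosomal RNA, transfer RNA and, by antibody mapping, on messenger RNA. Antibody-based maps need a mock precipitation, because fragments that stick to beads or are merely abundant also form peaks, and this is what the IgG samples measure. The end of a messenger RNA usually holds the 3′ untranslated region and the polyadenylation site, where many regulatory proteins and microRNAs bind. Coding and untranslated boundaries were not used here, so positions are given only along the annotated transcript.

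NAT10 itself had RNA of 50.7 and 50.1 CPM (read counts scaled to the library total) in knockout cells, against 132 and 146 in wild type cells, and footprints of 54.8 and 47.4 CPM in knockout cells, against 180 and 190 in wild type cells. Both readouts were lower in every knockout library, with log2 fold changes of -1.51 ± 0.09 in RNA (SE, adjusted p = 0.000102, edgeR) and -1.82 ± 0.19 in footprints (SE, adjusted p = 0.000334, edgeR). NAT10 transcripts carried end peaks in all 4 lists, with a highest fold enrichment of 5.00 for the ac4C antibody and 3.27 for IgG in knockout cells, and 6.68 for the ac4C antibody and 7.75 for IgG in wild type cells. Fold enrichment is the authors' own value for each peak and is used here to describe and rank peaks within a list. Folds of 1 gene given for several lists were not tested against each other.

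The ac4C antibody placed a smaller share of its peaks at the transcript end than IgG did, and less there than the end's 20% of the length. In knockout cells end peaks were 18.1% of the 103312 peaks on coding transcripts with the ac4C antibody (95% Wilson interval 17.9 to 18.4) and 20.7% of 93393 with IgG (20.4 to 20.9). In wild type cells they were 17.5% of 64433 with the ac4C antibody (17.2 to 17.8) and 18.9% of 65291 with IgG (18.6 to 19.2). The antibody share lay below the IgG share in both genotypes, also under each other setting run. At the opposite end, summits in the first 0.2 of the length made up 18.8% of antibody peaks and 16.2% of IgG peaks in knockout cells, and 15.1% and 14.7% in wild type cells.

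**Figure D1:**
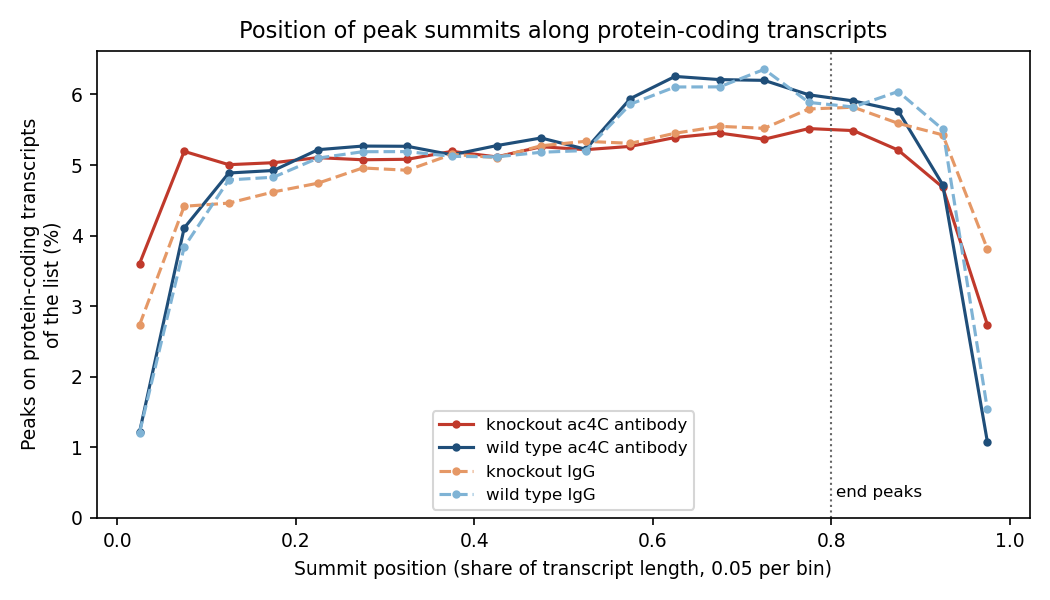
Share of all peaks on protein-coding transcripts (vertical axis, percent of the list) by summit position (horizontal axis, share of transcript length in bins of 0.05), with the ac4C antibody as solid and IgG as dashed lines, knockout in red tones and wild type in blue. Right of the dotted line at 0.8 lie the end peaks, 18.1% of knockout antibody peaks and 17.5% of wild type antibody peaks. All 4 lines drop in the last bin, and all 4 are also low in the first bin.

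The final 0.05 of the length was the emptiest stretch of the end region. It held 2.74% of antibody peaks and 3.81% of IgG peaks in knockout cells, and 1.08% of antibody peaks and 1.54% of IgG peaks in wild type cells. The strongest summit told the same order between antibodies. Among transcripts with at least 2 summits, the highest lay at the end in 3346 of 16304 with the ac4C antibody (20.5%) and 4405 of 14912 with IgG (29.5%) in knockout cells, and in 3683 of 14706 with the ac4C antibody and 4406 of 14726 with IgG (29.9%) in wild type cells. In knockout cells the antibody's highest summit lay more often at the start, in 22.2% of transcripts, than IgG's, in 14.7%, while the wild type shares were 15.4% and 14.4%.

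End peaks were higher than other peaks in the knockout lists and lower in the wild type lists, by small margins. Their median fold enrichment was 4.80 with the ac4C antibody in knockout cells, where start and middle peaks both had 4.48. It was 3.59 with the ac4C antibody in wild type cells, where start peaks had 3.99 and middle peaks 3.89. With IgG, end peaks had a median of 5.27 in knockout cells and 3.73 in wild type cells, beside 4.70 and 3.86 for middle peaks. Peaks on either side of the position threshold were similar in height. The 1128 knockout antibody peaks just inside it had a median fold of 4.80 and the 1130 just outside 4.90, and the 728 wild type antibody peaks just inside had 3.99 and the 721 just outside 3.71.

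Knockout and wild type lists differed in how near to the last base a summit could lie, and both antibodies showed this alike. Summits within 100 bases of the last base were 8.14% of antibody end peaks and 9.15% of IgG end peaks in knockout cells, against 0.213% and 0.235% in wild type cells. The commonest distance was 100 to 150 bases in both knockout lists, and 200 to 250 bases in both wild type lists. Medians were closer, at 337 bases with the ac4C antibody and 315 with IgG in knockout cells, and 323 and 287 in wild type cells. The genotypes also differed at the other edge of the transcript. The first 0.05 of the length held 3.60% of antibody and 2.73% of IgG peaks in knockout cells, against 1.22% and 1.21% in wild type cells.

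**Figure D2:**
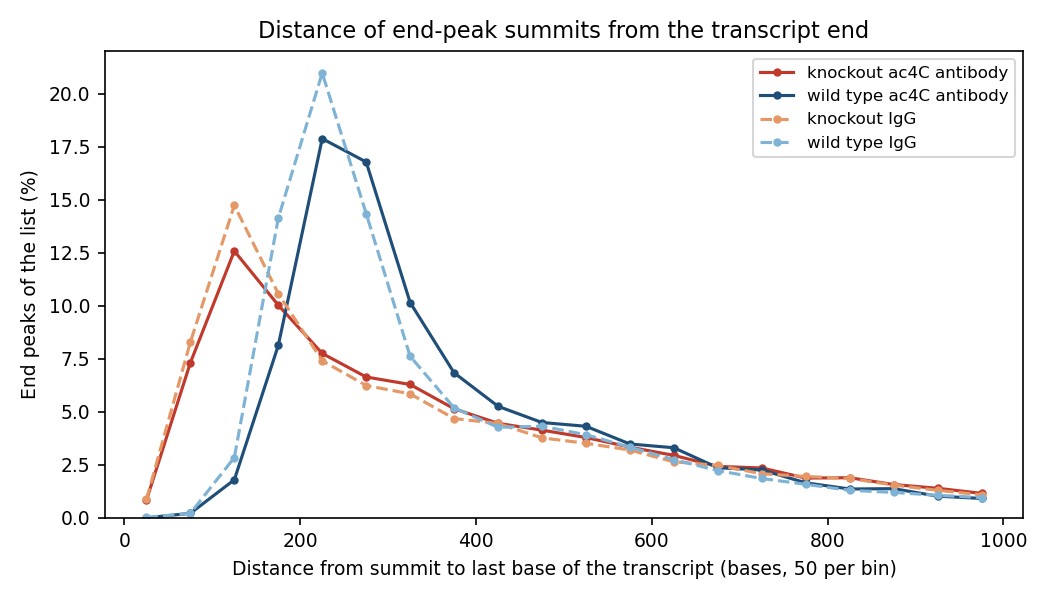
Distance of end-peak summits from the last base of the transcript (horizontal axis, bases, 50 per bin) against the share of the list's end peaks (vertical axis, percent), with the ac4C antibody solid and IgG dashed. Both knockout lines peak between 100 and 150 bases, both wild type lines between 200 and 250 bases.

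The called regions differed in the same way. The median region around an end summit spanned 453 bases with the ac4C antibody and 383 with IgG in knockout cells, and 1500 and 1438 in wild type cells. No region was shorter than 140 bases in the knockout antibody list, while the smallest in the wild type antibody list had 236. Of the distinct regions with an end summit, 30.2% of 12926 in the knockout antibody list covered over 50% of their transcript. In the wild type antibody list 61.0% of 9007 did. In 576 knockout antibody and 32 wild type antibody cases the region ran past the annotated last base, and 7 knockout antibody summits lay past it. How far region width set the distances above was not tested.

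Short transcripts separated the genotypes most. On transcripts under 1000 nt, end peaks were 1134 of 8691 antibody peaks and 1184 of 7504 IgG peaks (15.8%) in knockout cells, against 161 of 7239 antibody peaks (2.22%) and 209 of 7218 IgG peaks (2.90%) in wild type cells. On transcripts of 2000 to 4000 nt the shares were 19.9% with the ac4C antibody and 22.8% with IgG in knockout cells, and 20.2% and 21.3% in wild type cells. Beyond 8000 nt they were 16.4% and 17.7% in knockout cells, and 23.2% and 22.6% in wild type cells, the 1 length class of the 5 examined in either genotype where the antibody share exceeded that of IgG.

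Over 9 in 10 end peaks of the ac4C antibody had an IgG peak over them in the same genotype. On the same transcript, 1601 of 18724 knockout antibody end peaks (8.55%) shared no base with a knockout IgG peak, beside 10.9% of all knockout antibody peaks on coding transcripts. In wild type cells 382 of 11262 (3.39%) shared none with a wild type IgG peak, beside 3.09% of all. The share was thus near or under that of peaks at any position. In the other direction, 10.9% of knockout IgG end peaks overlapped no knockout antibody peak, beside 6.58% of all knockout IgG peaks, and 3.89% of wild type IgG end peaks overlapped no wild type antibody peak, beside 2.95%.

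End peaks that IgG lacked were low ones. Their median fold enrichment was 2.92 in the knockout antibody list, where those with an IgG peak over them had 5.21, and 1.95 in the wild type antibody list, where the others had 3.68. The highest reached 9.59 in knockout cells and 4.20 in wild type cells, whereas end peaks with an IgG peak over them reached 395 and 260. They were also narrow, with a median region of 215 bases in knockout cells and 319 in wild type cells, against 773 and 1649 for the others of the same list.

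Between genotypes the antibody's end peaks overlapped less. Of the knockout antibody end peaks, 5171 (27.6%) shared no base with a wild type antibody peak, beside 26.6% of all knockout antibody peaks on coding transcripts. Of the wild type antibody end peaks, 2346 (20.8%) shared none with a knockout antibody peak, beside 20.8% of all. End peaks therefore did not stand apart from the other positions in this overlap. End peaks on transcripts with no peak at all in the other list made up 3452 of the 5171 and 1654 of the 2346. With IgG, 29.4% of 19286 knockout end peaks shared no base with a wild type IgG peak, beside 27.0% of all knockout IgG peaks. Of 12347 wild type IgG end peaks, 24.6% shared none with a knockout IgG peak, beside 24.7% of all. Both IgG shares of end peaks lay above those of the antibody.

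Summits gave a sharper picture than regions. A knockout antibody end peak had a summit within 100 bases in the knockout IgG list in 76.9% of cases, in the wild type antibody list in 30.2% and in the wild type IgG list in 33.2%. A wild type antibody end peak had one in the wild type IgG list in 83.6% of cases, in the knockout antibody list in 47.2% and in the knockout IgG list in 44.2%. Over antibody peaks at any position on coding transcripts the same shares were 71.5%, 31.6% and 32.5% for the knockout list, and 80.9%, 48.9% and 44.1% for the wild type list. Sharing mostly within a genotype, across the 2 antibodies, was thus found along the whole transcript and was not particular to its end.

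**Figure D3:**
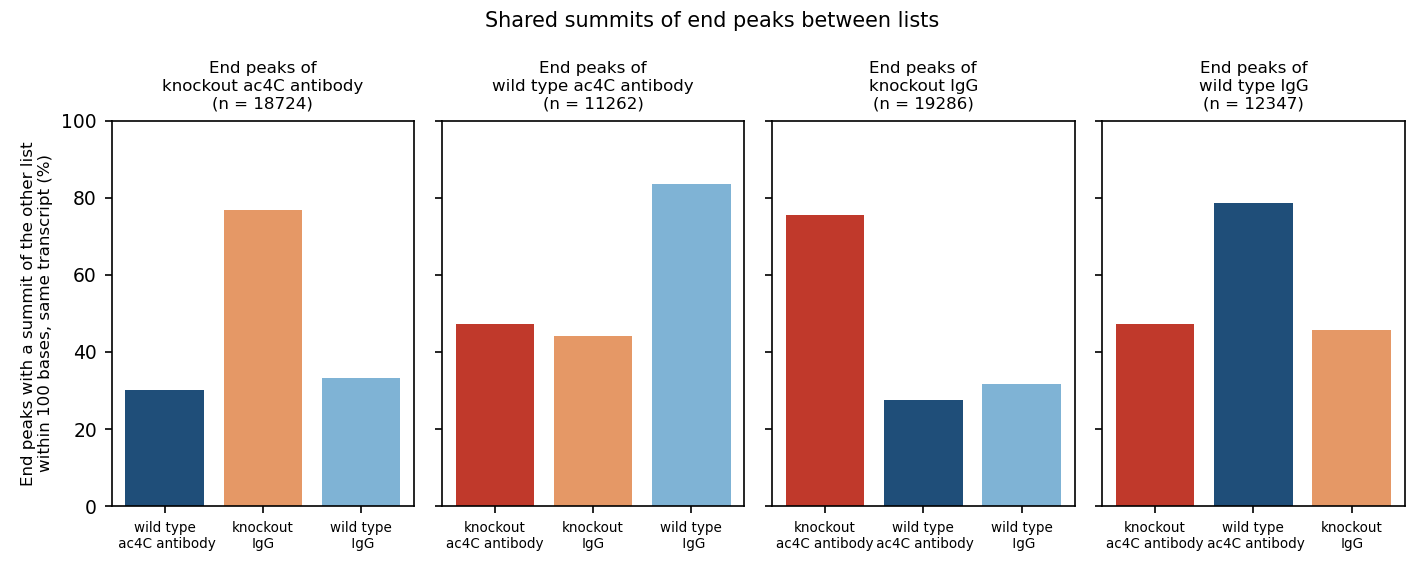
Share of end peaks of each list (1 panel a list, with the number of end peaks) that had a summit of another list within 100 bases on the same transcript (vertical axis, percent; 1 bar per other list). In every panel the tallest bar is the other antibody of the same genotype, between 75.5% and 83.6%.

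At the level of genes, end peaks were found on 8237 genes in at least 1 list. Of these, 3160 (38.4%) had one in all 4 lists, 2271 (27.6%) in both knockout lists and neither wild type list, and 760 (9.23%) in both wild type lists and neither knockout list. Only 12 genes had end peaks with the ac4C antibody in both genotypes and with IgG in neither. The reverse, end peaks with IgG in both genotypes and with the antibody in neither, was found on 60 genes. The knockout antibody list covered 6429 genes and shared 5820 of them with knockout IgG, 90.5% of the antibody's and 88.4% of IgG's genes. The wild type antibody list covered 4652 genes and shared 4458 with wild type IgG, 95.8% of the antibody's and 88.1% of IgG's genes. Between the knockout and wild type antibody lists 3561 genes were shared, 55.4% of the knockout's and 76.5% of the wild type's genes.

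The genes with the highest end peaks were largely shared between antibody and IgG. In the knockout antibody list FTL, the ferritin light chain that stores iron, came first with a fold enrichment of 395, followed by PCSK5, EEF2, FAM241A, HBE1 and MT-ND2. Knockout IgG was led by PCSK5, FTL, EEF2, FAM241A, RPL31 and HBE1. Among the 6 highest in the wild type antibody list were EEF2, which encodes the elongation factor that moves the ribosome along, the ribosomal protein genes RPL4 and RPL32, the kinase gene PIM1 and the actin-binding peptide gene TMSB4X, and these were also among the 6 highest of wild type IgG. EEF2 had a fold enrichment of 255 with the ac4C antibody and 222 with IgG in knockout cells, and 260 with the ac4C antibody and 251 with IgG in wild type cells. Among the 100 genes with the highest end peaks of each list, the antibody and IgG shared 66 in knockout cells and 87 in wild type cells, while the antibody lists of the 2 genotypes shared 26 and the IgG lists 21.

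FTL had RNA of 2842 and 2848 CPM in knockout cells, against 2251 and 2500 CPM in wild type cells, and yet it had no end peak in either wild type list. Its end peak in the knockout lists, 395-fold with the ac4C antibody and 257-fold with IgG, lay on a transcript of 871 nt. HBE1, the embryonic beta-type globin, likewise had end peaks in the knockout lists alone, 121-fold with the ac4C antibody and 118-fold with IgG, on transcripts of 913 and 918 nt. Its footprints stood at 5499 and 4337 CPM in knockout cells, against 1930 and 1448 CPM in wild type cells, a log2 fold change of 1.55 ± 0.15 (SE, adjusted p = 0.00032, edgeR). Its RNA counts gave only 2.08 and 2.60 CPM in knockout cells, against 2.30 and 0.80 CPM in wild type cells, with overlapping ranges. Beside such footprints this RNA level is uncertain, and whether reads over the gene were lost in counting was not tested.

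PCSK5, which encodes a proprotein-cleaving protease, stood among the leading genes although its RNA was barely detected, at 0.45 and 0.43 CPM in knockout cells, against 1.01 and 0.40 CPM in wild type cells. Its end peak, near 295 bases before the last base, had a fold enrichment of 381 with the ac4C antibody and 381 with IgG in knockout cells, and 17.8 with the ac4C antibody and 17.9 with IgG in wild type cells. FAM241A, an uncharacterised gene, had 143 with the ac4C antibody and 146 with IgG in knockout cells, and 18.5 with the ac4C antibody and 16.9 with IgG in wild type cells. MT-ND2, a mitochondrially encoded subunit of respiratory complex I, had 116 with the ac4C antibody and 18.8 with IgG in knockout cells, and 34.8 with the ac4C antibody and 40.2 with IgG in wild type cells.

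Whether a gene had an end peak followed its RNA level in all 4 lists. Coding genes tested in RNA-seq were split into 4 classes of equal number by their RNA in the genotype concerned. In the lowest class 16.9% of genes had an end peak with the ac4C antibody and 16.6% with IgG in knockout cells, and 6.01% and 6.76% in wild type cells. In the highest class the shares were 82.3% with the ac4C antibody and 82.8% with IgG in knockout cells, and 71.2% and 73.8% in wild type cells. The antibody share lay below that of IgG in each class except the lowest in knockout cells. The share with a coding peak at any position climbed likewise. It went from 33.3% to 98.1% for the knockout antibody and from 17.7% to 94.1% for the wild type antibody. Among genes with such a peak, those with an end peak rose from 50.8% to 83.9% and from 33.9% to 75.7%. Genes not tested in RNA were left out, so 5682 of 6425 genes with a knockout antibody end peak were covered.

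**Figure D4:**
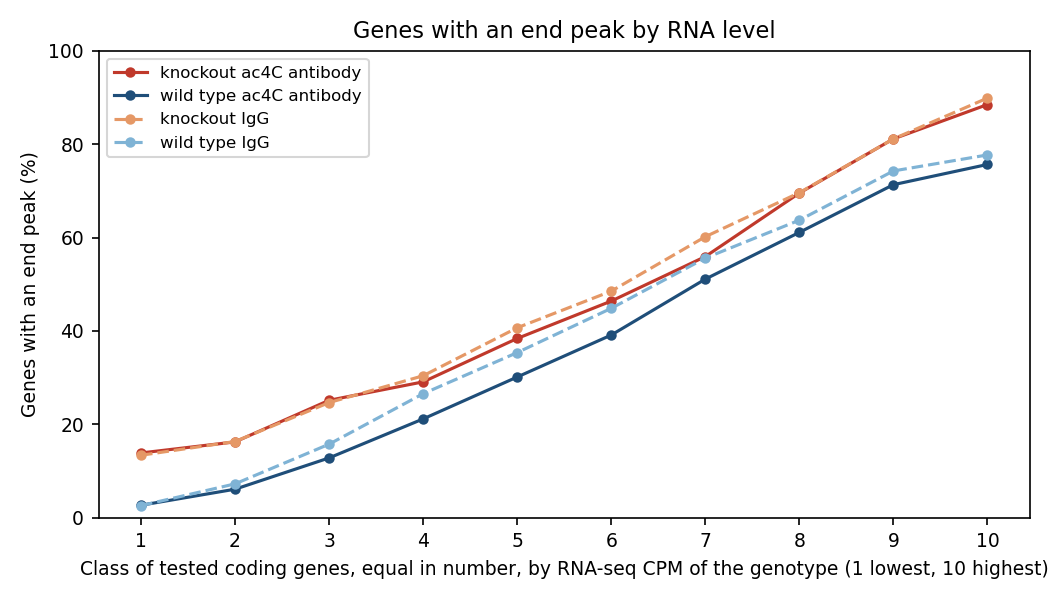
Share of tested coding genes with an end peak (vertical axis, percent) in 10 classes of equal number by RNA level (horizontal axis, CPM of the same genotype, lowest to highest), with the ac4C antibody solid and IgG dashed. All 4 lines climb, from 13.9% in the lowest class to 88.5% in the highest for the knockout antibody and from 2.70% to 75.7% for the wild type antibody.

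Gene groups differed between genotypes, and again alike for both antibodies. Of the 85 cytosolic ribosomal protein genes tested in RNA, 57 had an end peak with the ac4C antibody and 58 with IgG in knockout cells, against 19 and 19 in wild type cells. Over all 12238 coding genes tested the shares were 46.4% with the ac4C antibody and 47.5% with IgG in knockout cells, and 37.1% and 40.4% in wild type cells. Respiratory chain genes showed 46 and 48 of 82 in knockout cells, against 14 and 19 in wild type cells, and mitochondrial ribosomal protein genes 49 and 49 of 76, against 23 and 27. Messages of these 3 groups are typically short, and the part of transcript length in these counts was not tested. The ZNF zinc finger genes had 182 with the ac4C antibody and 185 with IgG of 317 in knockout cells, against 84 and 89 in wild type cells.

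Among several other groups the antibody counts of the genotypes differed by at most 2 genes. Aminoacyl-tRNA synthetases, which charge transfer RNAs, had 26 of 38 genes with the ac4C antibody and 26 with IgG in knockout cells, and 27 and 27 in wild type cells. Mitotic genes had 23 of 30 with the ac4C antibody and 25 with IgG in knockout cells, and 23 and 24 in wild type cells. Cholesterol synthesis genes had 17 of 24 with the ac4C antibody and 16 with IgG in knockout cells, and 17 and 18 in wild type cells. Glycolytic genes had 14 of 18 with the ac4C antibody and 11 with IgG in knockout cells, and 15 and 15 in wild type cells. RNA modification enzymes had 23 of 37 with the ac4C antibody and 25 with IgG in knockout cells, and 21 and 24 in wild type cells.

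Erythroid regulators, the transcription factors and signalling proteins of red cell formation, had end peaks on 22 of 28 genes with both antibodies in knockout cells, and on 18 with the ac4C antibody and 19 with IgG in wild type cells. None of them was among the genes whose antibody end peaks all lacked an IgG peak. Such genes were few, 462 for the knockout and 139 for the wild type of the 12238 coding genes tested. Finding 0 among 28 therefore does not set this group apart. GATA1, the master erythroid factor, had a fold enrichment of 18.8 with the ac4C antibody and 34.0 with IgG in knockout cells, and 70.3 with the ac4C antibody and 68.6 with IgG in wild type cells. KLF1, which drives adult globin genes, had end peaks in the knockout lists alone, 34.6-fold with the ac4C antibody and 19.6-fold with IgG. HBZ, the embryonic alpha-type globin, had 41.7-fold with the ac4C antibody and 27.3-fold with IgG in knockout cells and none in wild type cells. These 3 genes were named after their values were seen. Of the 8 globin genes tested, 2 had an antibody end peak in knockout cells and 0 in wild type cells, and the peaks of HBE1 and HBZ lay on transcripts under 1000 nt.

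Some antibody end peaks of 1 genotype were matched on the same transcript neither by IgG of that genotype nor by the antibody in the other. There were 206 genes none of whose knockout antibody end peaks was matched in this way, with a median fold of 3.13. Among the leading members were LAX1, a lymphocyte adaptor, with 7.82, PLEKHA1 with 6.99, DNAJC17 and the ion channel gene CALHM1 with 6.67 each, SNX22 and RNF223 with 6.46 each and BEST2, a chloride channel, with 6.15. LAX1 had 0 counts in all 4 RNA-seq libraries, and CALHM1, RNF223 and BEST2 each stayed under 0.3 CPM. The 4 therefore have peaks on transcripts whose gene was not detectable, or barely so, at this RNA-seq depth. Further members from the gene groups were UQCRHL, a complex III subunit, with 4.07, ZNF792 with 3.86, ZNF507 with 3.65 and ZNF208 with 3.34.

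There were 89 genes none of whose wild type antibody end peaks was matched by wild type IgG or by the knockout antibody, with a highest fold of 4.20 and a median of 1.89. Leading members were HDDC3, a phosphohydrolase, with a fold of 4.20, MAP11 with 3.00, TPCN1, an endolysosomal ion channel, with 2.78, MAGED2 with 2.72, ZNF771 with 2.66, PTPRR, a tyrosine phosphatase, with 2.57, SLC44A2, a choline transporter, with 2.53, and ACTR3B with 2.35. HDDC3 had an 11.5-fold IgG end peak in wild type cells on another of its transcripts, and PTPRR and ACTR3B likewise had wild type IgG end peaks on another transcript.

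In both genotypes together, 7 genes had overlapping antibody end peaks that the IgG of their own genotype lacked. The 6 past the height rule were ZNF506 with a fold of 2.61 in knockout cells and 2.78 in wild type cells, TRRAP, a scaffold of histone acetyltransferase complexes, with 2.82 and 2.50, UAP1L1 with 3.55 and 2.32, FAM53B with 3.65 and 2.16, MSI2, an RNA-binding protein of blood stem cells, with 2.82 and 2.04, and GPR107 with 2.61 and 1.92. All of these lie below the median folds of their lists, 4.80 in knockout cells and 3.59 in wild type cells. TRRAP, UAP1L1 and MSI2 also had knockout IgG end peaks, of 4.41, 2.99 and 3.27, the highest of each on another transcript of the gene, and FAM53B had a wild type IgG end peak of 2.84 at another position.

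RNA-seq and Ribo-seq asked whether genes with end peaks changed after NAT10 loss. Library totals were 10388717 to 18778485 counts in RNA-seq and 621287 to 1220308 in Ribo-seq. The 2 knockout RNA libraries differed by little more than counting noise, with a chi-square per degree of freedom of 1.03, against 12.5 between the wild type libraries. They were counted as 1 sample, which is assumed to vary like the wild type. Erythroid markers were present in all RNA libraries, with a summed 1470 and 1449 CPM over 10 genes in knockout cells and 1116 and 1171 CPM in wild type cells. Granulocyte and monocyte markers summed to 133 and 128 CPM in knockout cells and 241 and 239 CPM in wild type cells over 19 genes, 2 of them at 0 in all libraries. Megakaryocyte markers summed to 65.6 and 67.97 CPM in knockout cells and 107 and 104 CPM in wild type cells over 16 genes, 5 of them at 0. Lymphocyte markers summed to 44.6 and 40.7 CPM in knockout cells and 53.9 and 54.3 CPM in wild type cells over 12 genes, and fibroblast and epithelial markers to 471 and 482 CPM, against 583 and 584 CPM, over 12 genes, with 1 at 0 in each list. Their part in the changes below was not tested.

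Of 7513 genes with an antibody end peak in either genotype, 6738 were tested in RNA. There 443 were higher and 831 lower in knockout cells (adjusted p under 0.05, edgeR), 18.9% together. The share was 14.0% over all 16277 genes tested, 5.17% higher and 8.79% lower. Over the 12238 coding genes tested it was 16.7%, 5.83% higher and 10.9% lower. The median log2 fold change of the genes with an antibody end peak was 0.00, as over all genes. Coding genes with no end peak in any list were called in 14.2% of 4872 cases, but their median level was 3.32 log2 CPM where the genes with antibody end peaks had 5.97, and the part of RNA level in this was not tested. Genes with IgG end peaks in knockout cells were called in 18.4% of 5811 cases. The count depended on the fit. DESeq2 called 642 of the 7322 genes with antibody end peaks that it covered, and 1042 of the 16277 genes tested in edgeR. These 2 sets differ, because the 7322 include genes that the edgeR filter removed. Keeping the 2 knockout libraries apart in edgeR gave 2946 of 6717 genes with antibody end peaks, with no share over all genes given. Without a filter on low counts 1008 were higher and 777 lower, so the balance of directions turned.

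In footprints 5963 of the same genes were tested, and 83 were higher and 269 lower in knockout cells, 5.90% together, beside 5.34% of all 8887 genes, 1.47% higher and 3.87% lower. DESeq2 called 136 of the 6829 genes with antibody end peaks that it covered, and 166 of the 8887 genes tested in edgeR, again unlike sets. With no filter on low counts edgeR called 604 of 6829 genes with antibody end peaks, with no share over all genes given. Translational efficiency, the ratio of footprints to RNA, was tested for 6405 genes with antibody end peaks with edgeR. There 0 passed the threshold, beside 0.00971% of all 10299 genes. Without adjustment 676 of the 6405 had a p under 0.05 in edgeR, beside 1037 of all 10299. DESeq2 called 24 of the 7339 genes with antibody end peaks that it covered, and 29 of the 10299 genes tested in edgeR. These sets are unlike as well, so the 24 need not all lie among the 29. The DESeq2 count over all genes that it covered is not given. The median log2 change in efficiency was -0.08 for genes with antibody end peaks and -0.06 for all genes.

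The genes above whose antibody end peaks of 1 genotype were unmatched formed a knockout set and a wild type set. Matches were sought in IgG of that genotype and in the antibody list of the other. In RNA 17.9% of the knockout set and 12.5% of the wild type set were called. Over all genes the share was 14.0% (5.17% higher and 8.79% lower), and over the 12238 coding genes 16.7% (5.83% higher and 10.9% lower). Without the condition on the other genotype, 20.1% of 462 genes were called for the knockout and 14.4% of 139 for the wild type. Of the 206 genes of the knockout set, 162 were tested in RNA, with 5 higher (3.09%) and 24 lower (14.8%) in knockout cells and a median log2 change of -0.01. Of the 89 genes of the wild type set, 88 were tested, with 1 higher (1.14%) and 10 lower (11.4%) in knockout cells and a median of -0.01. In footprints the knockout set had 2 higher (1.57%) and 7 lower (5.51%) of 127, and the wild type set 1 higher (1.22%) and 3 lower (3.66%) of 82. Over all 8887 genes 1.47% were higher and 3.87% lower. In translational efficiency neither set had a call in edgeR or DESeq2, beside 1 and 29 over all 10299 genes. Without adjustment 13 of 150 genes of the knockout set and 6 of 86 of the wild type set had a p under 0.05 in edgeR. Over all genes 1037 of 10299 did.

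**Figure D5:**
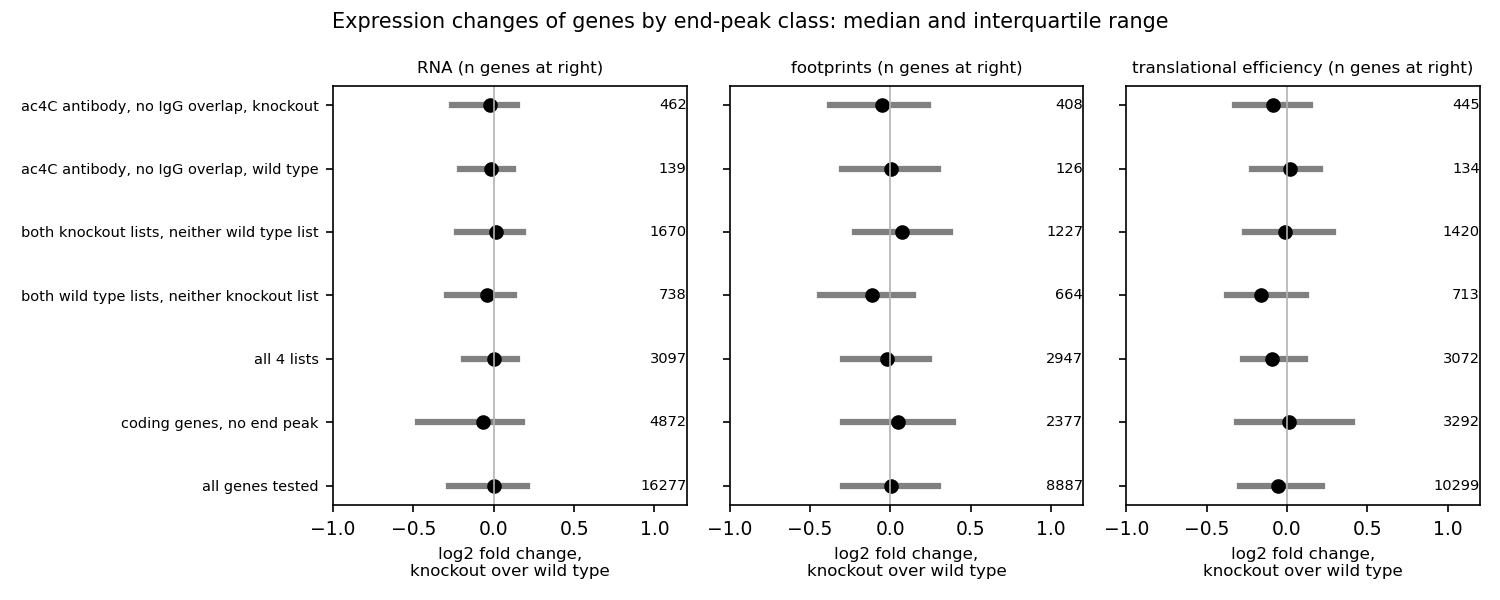
Median log2 fold change, knockout over wild type (black points), and the interquartile range (grey bars) in RNA, footprints and translational efficiency for gene classes by end peak, with the number of genes tested at the right. All medians plotted lie within 0.2 of 0, including the 3097 genes with end peaks in all 4 lists. The classes without IgG overlap were defined without regard to the antibody in the other genotype, and so differ from the sets above.

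Single members of these sets changed clearly in RNA. PTGS1, the cyclooxygenase of platelets, had 3.31 and 2.87 CPM in knockout cells, against 19.6 and 24.6 CPM in wild type cells, a log2 fold change of -2.88 ± 0.21 (SE, adjusted p = 0.000272, edgeR). Its footprints also fell, to 1.69 and 3.16 CPM in knockout cells, against 30.9 and 25.5 CPM in wild type cells (adjusted p = 0.00278, edgeR). Its antibody end peak was found in knockout cells, the genotype with less RNA, at a fold of 2.82, while wild type IgG had one of 1.95 at another position.

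DLC1 had 18.8 and 18.7 CPM in knockout cells, against 53.2 and 56.5 CPM in wild type cells, a log2 fold change of -1.59 ± 0.11 (SE, adjusted p = 0.000213, edgeR), with a knockout antibody end peak of 3.13. PXN, the focal adhesion protein paxillin, had 82.4 and 81.9 CPM in knockout cells, against 153 and 144 CPM in wild type cells (log2 fold change -0.90, adjusted p = 0.000591, edgeR). APOBR, a lipoprotein receptor, had footprints of 6.75 and 9.47 CPM in knockout cells, against 30.9 and 37.7 CPM in wild type cells (log2 fold change -2.11, adjusted p = 0.00862, edgeR). These 3 genes were named for their low adjusted p, so that their groups did not overlap is no separate result. In RNA both knockout libraries lay below both wild type libraries in 30.1% of 17350 coding genes with a count. In all 3 genes the end peak that lacked an IgG match was one of the knockout list.

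In the wild type set, PTPRR had 8.53 and 8.34 CPM of RNA in knockout cells, against 27.0 and 28.5 CPM in wild type cells (log2 fold change -1.76, adjusted p = 0.000433, edgeR). SLC44A2 fell to 42.8 and 40.6 CPM in knockout cells, against 67.3 and 73.0 CPM in wild type cells (log2 fold change -0.79, adjusted p = 0.00157, edgeR). SLC25A29, a mitochondrial carrier of basic amino acids, had footprints of 7.59 and 7.89 CPM in knockout cells, against 26.7 and 36.6 CPM in wild type cells (adjusted p = 0.0131, edgeR), a call lost without wild type replicate 2 (adjusted p = 0.0535, edgeR). FGF2, a growth factor, moved the other way, with 172 and 175 CPM of RNA in knockout cells, against 100.3 and 94.5 CPM in wild type cells (log2 fold change 0.79, adjusted p = 0.000765, edgeR). The genes of either set with the lowest adjusted p in translational efficiency were CD99L2, IL15RA, ZNF771, SETD2 and ATP6V0B, and none passed, at adjusted p of 0.454 to 0.461 (edgeR).

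Peaks found in 1 genotype with both antibodies were compared with RNA as well, and the genes named here were chosen after their values were seen. End peaks in both knockout lists on genes without any peak in a wild type list were found on 1205 genes, with a median RNA of 0.729 and 0.758 CPM in knockout cells, against 1.01 and 0.957 CPM in wild type cells. Of the 657 tested, 33 were higher and 64 lower in knockout cells, close to the shares over all genes. HMGA2, a chromatin protein of fetal and stem cells, was among the higher ones, with 53.2 and 52.8 CPM in knockout cells, against 1.10 and 1.04 CPM in wild type cells (log2 fold change 5.58, SE 0.17). NAV1, with 28.7 and 28.0 CPM in knockout cells, against 127 and 142 CPM in wild type cells (log2 fold change -2.29), and PTPRB, with 19.5 and 21.6 CPM, against 86.7 and 101 CPM (log2 fold change -2.23), had end peaks in both knockout lists although their RNA was lower there. DSEL had end peaks of 38.4-fold with the ac4C antibody and 48.7-fold with IgG in knockout cells, at 0.34 and 0.22 CPM of RNA in knockout cells and 0.18 and 0.16 CPM in wild type cells.

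The reverse pattern, end peaks in both wild type lists on genes without a knockout peak, was rarer, with 189 genes. Of the 181 tested in RNA, 4 were higher (2.21%) and 26 lower (14.4%) in knockout cells. The shares were 5.17% and 8.79% over all genes, and 5.83% and 10.9% over coding genes, differences that were not tested. ALDOC, a glycolytic aldolase, had the highest end peak, 10.3-fold with the ac4C antibody and 11.1-fold with IgG, at 13.1 and 14.2 CPM in knockout cells and 11.2 and 12.8 CPM in wild type cells, which did not pass the test (log2 fold change 0.15, adjusted p = 0.61, edgeR). CDKN1A, the cell cycle inhibitor p21, had RNA of 72.8 and 67.0 CPM in knockout cells, against 33.8 and 31.3 CPM in wild type cells (log2 fold change 1.06), and no knockout peak. ALAS2, the erythroid enzyme that starts heme synthesis, had 13.1 and 13.1 CPM in knockout cells, against 8.64 and 9.65 CPM in wild type cells, which did not pass the test (log2 fold change 0.47, adjusted p = 0.11, edgeR).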

How the data were processed

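The 4 peak lists are narrowPeak files on GENCODE transcripts. Per the submitters' processing notes Bowtie2 and MACS2 were used and the build was GRCh38.p13; tool versions are not given in the sources used here. The lists hold the deposited fold enrichment (a ratio to input, per the peak names), −log10 p- and q-values and a peak score, called by the authors on merged replicates. The RNA-seq and Ribo-seq tables hold deposited read counts per gene, and STAR and featureCounts are named in the submitters' processing notes.

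Peaks were taken as end peaks when the summit lay beyond 0.8 of the transcript length. Overlap meant at least 1 shared base on the same transcript. Summits of 1 region, and transcripts of 1 gene, share their reads. Y-chromosome copies of pseudoautosomal genes were left out of the count tables. Genes with peaks on such copies were merged with the other copy when matched to these tables. Counts were tested with edgeR 4.0.16 (TMM, filterByExpr, quasi-likelihood, Benjamini-Hochberg over all genes) in R 4.3.3, and with DESeq2 1.42.0 as an alternative. Efficiency was an assay-by-genotype interaction. The count tests were tested on simulated data, where the RNA step recovered 100.0% of genes changed by 1 on the log2 scale, the footprint step 58.9% and the efficiency step 49.0%. The changed genes were drawn from well-counted ones, and all genes were given the same dispersion. Recovery of low-count or more variable genes was therefore not measured. Named genes were the 6 highest per list, up to 8 per class without IgG overlap, up to 3 per gene group, and the 5 lowest adjusted p per assay, on transcripts of at least 500 nt and with −log10 q of at least 5; a few of them are not reported here. The members, lists and tests were chosen with earlier results of these data known.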

Additional observations from a re-analysis of the deposited data

How the results depend on the processing

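The end share moved with the setting but stayed lower for the antibody than for IgG in each. Beyond 0.9 of the length it was 7.42% (antibody) and 9.24% (IgG) for the knockout, and 5.80% and 7.05% for the wild type. With the highest summit per region, chosen after seeing the data like the next setting, it was 20.9% and 25.3% for the knockout, and 19.4% and 22.6% for the wild type. On transcripts with a peak in all 4 lists it was 17.6% and 19.4% in knockout cells and 17.8% with the wild type antibody. With −log10 q of at least 5 it was 18.5% and 21.3% in knockout cells. With 1 transcript per gene it was 18.7% and 20.2% in wild type cells.

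Antibody end peaks without an IgG peak were 5.82% (knockout) and 2.06% (wild type) with −log10 q of at least 5, 6.80% and 2.09% with 1 transcript per gene, 13.6% and 5.11% when 50% had to be covered, and 23.1% and 16.4% by summits within 100 bases. Those without an antibody peak of the other genotype were 18.8% (wild type) at that q, 31.2% (knockout) and 14.9% (wild type) with 1 transcript per gene, 32.1% and 42.5% at 50% coverage, and 69.8% and 52.8% by summits. The last are set by counting summits rather than regions.

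Call counts in this paragraph and the next are of genes with antibody end peaks, with no share over all genes beside them. In RNA, 1274 genes with antibody end peaks were called, DESeq2 called 642, and keeping the knockout libraries apart gave 2946. Leaving out 1 library gave 1180 to 3657, the highest of these without wild type replicate 1 and with the knockout libraries apart, which was 3625 without wild type replicate 2. With no filter on low counts 1785 were called, 1008 higher and 777 lower, so the balance turned. In footprints 352 became 136 in DESeq2, 604 with no filter, and 198 (without wild type replicate 1), 224 (without wild type replicate 2), 395 or 522 (without knockout replicate 1 or 2) when 1 library was left out. In efficiency 0 became 24 in DESeq2, 5 with the knockout RNA libraries apart, 42 with no filter, and 0 to 4 when 1 library was left out. The cause of these shifts was not tested.

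The replicate numbers are not said to mark a shared batch, and same-numbered deviations correlated at -0.01 in RNA and 0.23 in footprints. A replicate block gave 2707 calls in RNA with the knockout libraries apart, 1129 in footprints and 181 in efficiency with the knockout libraries apart. Of 285 values of single named genes under an alternative, 250 kept direction and side of the threshold, 35 kept direction only and 0 turned. The test on simulated data recovered, for efficiency, 49.0% of well-counted genes changed by 1 on the log2 scale.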
